A study of Rattus norvegicus with 18 samples.

Results

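The genes described here are the abundant noncoding genes of the rat heart. They were chosen as identifiers starting NONRATG with a mean of at least 20 FPKM over all 18 libraries and a difference between SHR and WKY under 1 on the log2(FPKM + 1) scale. The rule found 223 genes of 37262 in all, and 223 of the 16902 NONRATG identifiers. FPKM scales fragment counts to the length of a gene and the size of a library, so levels of different genes can be set side by side per length. The measured values that chose the genes were their mean level and the strain difference, which are therefore given below as a description, with no test.

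RNA sequencing of rRNA-depleted heart RNA was carried out in 3 groups of 6 libraries. The groups were QDG, SHR treated with QDG; SHR given NS, labelled hypertension; and WKY, labelled normal. SHR, the spontaneously hypertensive rat, is an inbred strain that develops high blood pressure, and WKY, the Wistar-Kyoto rat, is its usual normotensive comparison strain. The QDG and SHR groups share the SHR strain, so QDG against SHR compares treatments, whereas QDG against WKY differs in strain and in treatment at once and these cannot be told apart. The labels do not expand QDG or NS, do not say whether WKY was given NS, and give no age, sex or dose. They do not state that the 6 libraries of a group came from separate animals, and p-values here then measure the spread between libraries, which may be technical. Whole heart tissue mixes muscle, vessel, connective tissue and blood cells, and in such bulk samples fewer cells of a type and less RNA per cell cannot be told apart.

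NONRATG identifiers come from NONCODE, a catalogue of noncoding transcripts gathered from sequence records and other databases. Long noncoding RNAs are transcribed and often spliced like messenger RNAs but are not known to encode a protein. Some recruit chromatin or splicing factors, some bind microRNAs or host small RNAs, and for many no function is known. In heart muscle, noncoding transcripts of the myosin heavy chain locus and of imprinted loci are well studied. Libraries made after rRNA depletion, unlike those selected by poly(A) tail, also hold transcripts without a tail. The files pair no identifier with a gene name, so each gene is given by its identifier, whose suffix after the point is the entry's version, and no role is assigned to it. Of the 223 genes, 219 carried version 2, 3 carried version 3 and 1 carried version 1. Because the sources used here give no strand setting, reads of an overlapping or antisense gene cannot be told apart from those of a noncoding gene. Because no identifier was matched to a symbol, the defining markers of heart tissue, which are known by symbol, were not checked here.

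Levels of the 223 genes were spread over a wide range, from 20.1 to 5204 FPKM with a median of 31.8 FPKM. Only 56 averaged at least 50 FPKM, 19 at least 100 FPKM, 12 at least 200 FPKM and 5 at least 1000 FPKM. The summed level was correspondingly concentrated. NONRATG023456.2 alone held 23.1% of it, the 5 highest genes held 52.5%, the 20 highest held 68.2% and the 100 highest held 86.0%. All 223 passed the filter on low values used before testing, which kept 17397 genes. Just inside the level limit were NONRATG015223.2, NONRATG020310.2 and NONRATG019947.2, each at 20.1 FPKM. Just outside it were NONRATG013341.2 at 19.96 FPKM, NONRATG000650.2 at 19.95 FPKM and NONRATG021347.2 at 19.93 FPKM. The strain limit removed 7 of 230 NONRATG genes that reached 20 FPKM. NONRATG003933.2 at -0.98, NONRATG015223.2 at -0.95 and NONRATG007710.2 at -0.93 lay just inside it as log2 differences of SHR minus WKY. NONRATG024571.2 at -1.08, NONRATG018241.2 at -1.15 and NONRATG007529.2 at -1.25 lay just outside it, and the first of these averaged 254 FPKM.

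Together the 223 genes took a small part of all measured expression. Their share of summed FPKM was 3.56% ± 0.149 in QDG, 3.39% ± 0.118 in SHR and 3.84% ± 0.270 in WKY (SD, n = 6 each). QDG libraries ran from 3.33% to 3.71% with a median of 3.59%, SHR libraries from 3.19% to 3.53% with a median of 3.42%, and WKY libraries from 3.52% to 4.19% with a median of 3.79%. The QDG and SHR ranges overlapped widely, and the SHR and WKY ranges touched only at their ends. As a share of NONRATG expression the 223 genes made up 52.6% ± 1.93 in QDG, 52.0% ± 1.23 in SHR and 54.4% ± 2.68 in WKY (SD, n = 6 each). All NONRATG genes held 6.78% ± 0.341 in QDG, 6.53% ± 0.266 in SHR and 7.06% ± 0.286 in WKY (SD, n = 6 each).

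The group means differed mostly through the most abundant genes. NONRATG023456.2 took 0.756% ± 0.109 of summed FPKM in QDG, 0.692% ± 0.0886 in SHR and 1.04% ± 0.218 in WKY (SD, n = 6 each). Without it the remaining 222 genes held 2.81% ± 0.153 in QDG, 2.70% ± 0.128 in SHR and 2.80% ± 0.0922 in WKY (SD, n = 6 each). The genes ranked 2 to 5 held 1.07% ± 0.117 in QDG, 0.964% ± 0.0585 in SHR and 1.14% ± 0.0948 in WKY (SD, n = 6 each). The 218 genes from rank 6 on ran the other way, at 1.73% ± 0.122 in QDG, 1.74% ± 0.0866 in SHR and 1.66% ± 0.0764 in WKY (SD, n = 6 each), with differences within about 1 SD. A share also moves with the other genes in its total. The most abundant gene of the heart libraries, with the Ensembl identifier ENSRNOG00000043866, took 13.5% ± 0.430 in QDG, 13.5% ± 0.833 in SHR and 18.7% ± 2.17 in WKY (SD, n = 6 each). With the 4 most abundant genes left out of the total, the 223 genes held 5.29% ± 0.217 in QDG, 4.99% ± 0.116 in SHR and 5.90% ± 0.249 in WKY (SD, n = 6 each).

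**Figure D1:**
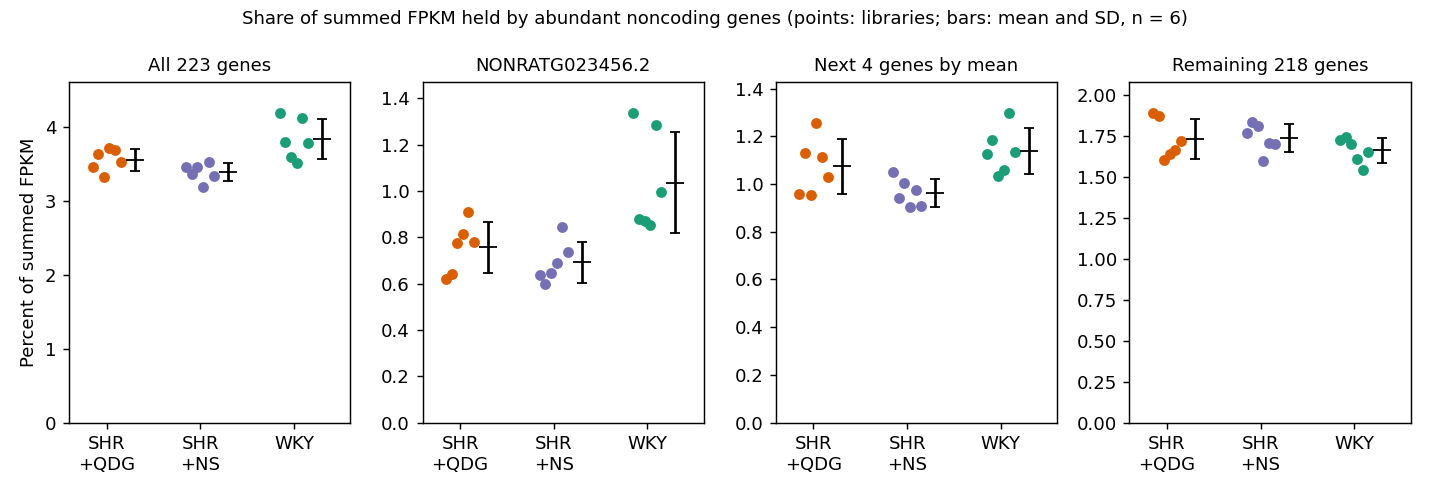
Share of summed FPKM in percent (vertical axes) for each library (points) of QDG, SHR and WKY, with the group mean and SD (bars), for the 223 genes together, NONRATG023456.2, the genes ranked 2 to 5 and the 218 from rank 6 on. WKY lies highest for NONRATG023456.2, at 1.04% against 0.756% in QDG and 0.692% in SHR, and the 218 remaining genes lie at 1.73% in QDG, 1.74% in SHR and 1.66% in WKY.

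NONRATG023456.2 was the 11th most abundant of all genes measured. It had 3753 FPKM in the lowest, 5005 FPKM in the median and 5822 FPKM in the highest QDG library, against 3624, 4181 and 5253 FPKM in SHR and 5268, 5814 and 8673 FPKM in WKY. WKY replicates 1 and 5 stood above the rest of their group, at 8453 and 8673 FPKM. QDG overlapped both other groups, and every SHR library lay below every WKY library. Against WKY it was lower in QDG by limma, with a log2 fold change of -0.45 (SE 0.14) and an adjusted p of 0.0301. The call was lost without WKY replicate 1 or 5 or QDG replicate 1 or 2, with log2 fold changes of -0.37, -0.36, -0.38 and -0.39, and also with no filter or with the 12 compared libraries alone. Against SHR the log2 fold change in QDG was 0.14 (SE 0.14, limma adjusted p = 0.786), with a 95% confidence interval of -0.16 to 0.44.

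NONRATG002812.3, NONRATG002813.2 and NONRATG002814.3 carry consecutive identifiers and ranked 2, 5 and 4 among the 223 genes. NONRATG002812.3 had a median of 2299 FPKM (1871 to 3011) in QDG, 2081 FPKM (1890 to 2493) in SHR and 2436 FPKM (2195 to 2786) in WKY. NONRATG002814.3 had a median of 1050 FPKM (1033 to 1363) in QDG, 1020 FPKM (818 to 1213) in SHR and 1151 FPKM (933 to 1352) in WKY. NONRATG002813.2 had a median of 1008 FPKM (843 to 1294) in QDG, 941 FPKM (816 to 1129) in SHR and 1073 FPKM (885 to 1216) in WKY. All groups overlapped for each of the 3 genes. The log2 fold changes in QDG against SHR were 0.15 for NONRATG002812.3, 0.16 for NONRATG002814.3 and 0.13 for NONRATG002813.2, with limma adjusted p of 0.662, 0.659 and 0.719.

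NONRATG008807.2, the third most abundant, had a median of 2252 FPKM (1539 to 2670) in QDG, 1779 FPKM (1465 to 2550) in SHR and 2254 FPKM (1752 to 3831) in WKY. Its log2 fold change was 0.21 in QDG against SHR (SE 0.20, limma adjusted p = 0.768), so a change of up to 0.62 lies within the 95% confidence interval. The remaining genes of the 10 most abundant lay far lower. NONRATG015845.2 had medians of 726 FPKM in QDG, 651 FPKM in SHR and 620 FPKM in WKY. NONRATG006031.2 had medians of 502 FPKM in QDG, 473 FPKM in SHR and 366 FPKM in WKY, and NONRATG006476.2 of 377 FPKM in QDG, 418 FPKM in SHR and 371 FPKM in WKY. NONRATG019644.2 had medians of 260 FPKM in QDG, 245 FPKM in SHR and 281 FPKM in WKY, and NONRATG020763.2 of 229 FPKM in QDG, 244 FPKM in SHR and 246 FPKM in WKY. The ranges of QDG overlapped both other groups for each of these 5 genes. Of the 10 most abundant genes, none passed the limma threshold in QDG against SHR, and NONRATG023456.2 alone passed it in QDG against WKY. NONRATG006031.2, with a log2 fold change of 0.26 in QDG against WKY (limma adjusted p = 0.199), passed it with sample weights, without WKY replicate 1 or without QDG replicate 3.

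**Figure D2:**
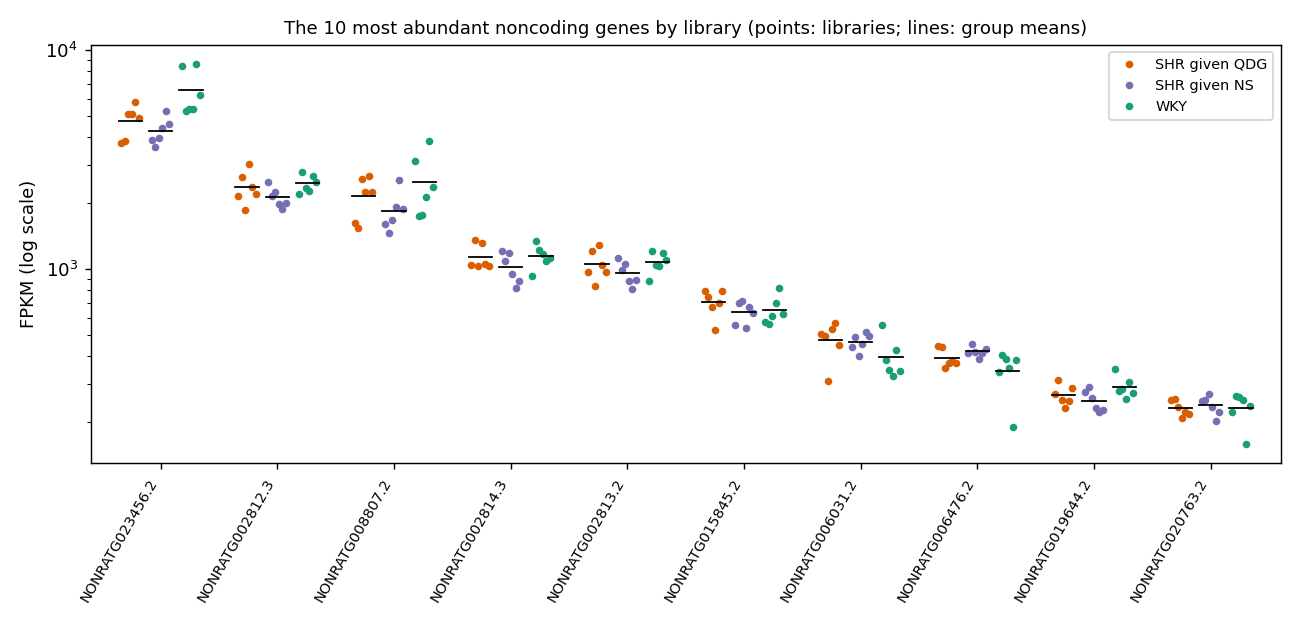
FPKM on a log axis for the 10 most abundant genes, with a point for each library of QDG, SHR and WKY and a line at the group mean. The 3 groups overlap for most genes, and NONRATG023456.2 reaches 8673 FPKM in WKY against 5822 FPKM in QDG and 5253 FPKM in SHR.

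Differences between SHR and WKY were limited by the choice of genes, and nothing is read from their counts. They are given for scale. The largest positive log2 differences of SHR minus WKY were 0.91 for NONRATG006692.2, 0.87 for NONRATG001812.2, 0.87 for NONRATG009619.2, 0.72 for NONRATG006104.2 and 0.72 for NONRATG012775.2. That of NONRATG006104.2 rests on single libraries: it was -0.17 without WKY replicate 4 and 1.65 without SHR replicate 4. The most negative were -0.98 for NONRATG003933.2, -0.95 for NONRATG015223.2, -0.93 for NONRATG007710.2, -0.91 for NONRATG008472.2 and -0.89 for NONRATG010519.2. That of NONRATG003933.2 rests largely on SHR replicate 2, at 0.0788 FPKM, and its value without that library is given below. NONRATG001812.2, NONRATG007710.2 and NONRATG010519.2 also varied widely, with an SD of at least 50% of the mean in at least 1 group. As a description and not as a test, because the rule limited this difference, 72 of the 223 genes were past an adjusted p of 0.05 in the limma model, 45 higher and 27 lower in SHR. The background was 24.8% of all genes tested, 12.2% higher and 12.6% lower. The split by the model was 27 higher and 39 lower after values were rescaled to equal totals without the 4 most abundant genes, and 35 higher and 35 lower after quantile normalization. Ranges did not overlap for 38 genes (17.0%), against 12.5% of all genes tested. In SHR, 22 of them were higher (9.87%, against 6.41% of all) and 16 lower (7.17%, against 6.09% of all).

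For QDG against SHR, the comparison of treatment within 1 strain, 1 of the 223 genes (0.448%) passed an adjusted p of 0.05 in limma, against 0.293% of all 17397 genes tested. It was higher in QDG, as were 0.207% of all genes, and none of the 223 was called lower, against 0.0862%. The SHR libraries helped choose the genes through the strain limit, and all libraries through the mean. At an unadjusted limma p under 0.05 the number was 29 (13.0%), against 10.4% of all genes tested. In QDG, 21 of them were higher (9.42%, against 7.05% of all) and 8 lower (3.59%, against 3.40% of all). Ranges of QDG and SHR did not overlap for 3 genes (1.35%), against 1.15% of all genes tested. In QDG, 2 of them were higher (0.897%, against 0.833% of all) and 1 lower (0.448%, against 0.316% of all). The median log2 fold change of the 223 genes was 0.02, as it was over all genes tested. These shares lay near those of all genes. For 192 of the 223 genes (86.1%) the 95% confidence interval stayed within a 1.5-fold change in either direction, against 92.3% of all genes tested.

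NONRATG025194.2 was the gene that passed. It had 27.4, 29.3 and 32.5 FPKM in the lowest, median and highest QDG library, against 20, 21.6 and 24.0 FPKM in SHR, and 21.1, 23.5 and 24.9 FPKM in WKY. All 6 QDG libraries lay above all 12 others. The log2 fold change was 0.41 in QDG against SHR (SE 0.05, limma adjusted p = 0.00136), a 1.33-fold difference on the log2(FPKM + 1) scale. Against WKY it was 0.33 in QDG (SE 0.05, limma adjusted p = 1.2e-04). The call against SHR held in all 29 alternatives of fit, scaling and left-out library, with adjusted p of 0.000545 to 0.0101.

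NONRATG026845.1, the gene with the second smallest p, was lower in QDG without passing. It had 41.8, 45.3 and 47.7 FPKM in the lowest, median and highest QDG library, against 48.0, 51.8 and 54.2 FPKM in SHR, and 50.1, 51.9 and 56.8 FPKM in WKY. Every QDG library lay below every library of the other groups. The log2 fold change was -0.18 in QDG against SHR (SE 0.05, limma adjusted p = 0.124) and -0.22 in QDG against WKY (SE 0.05, limma adjusted p = 0.00204). NONRATG008472.2 had 18.9, 22.6 and 30.5 FPKM in QDG, against 12.7, 16.7 and 21.5 FPKM in SHR and 23.1, 33.1 and 37.1 FPKM in WKY. The QDG median lay between those of SHR and WKY, and the QDG range overlapped both. Its log2 fold change was 0.50 in QDG against SHR (SE 0.14, limma adjusted p = 0.199) and -0.41 in QDG against WKY (SE 0.14, limma adjusted p = 0.0508).

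**Figure D3:**
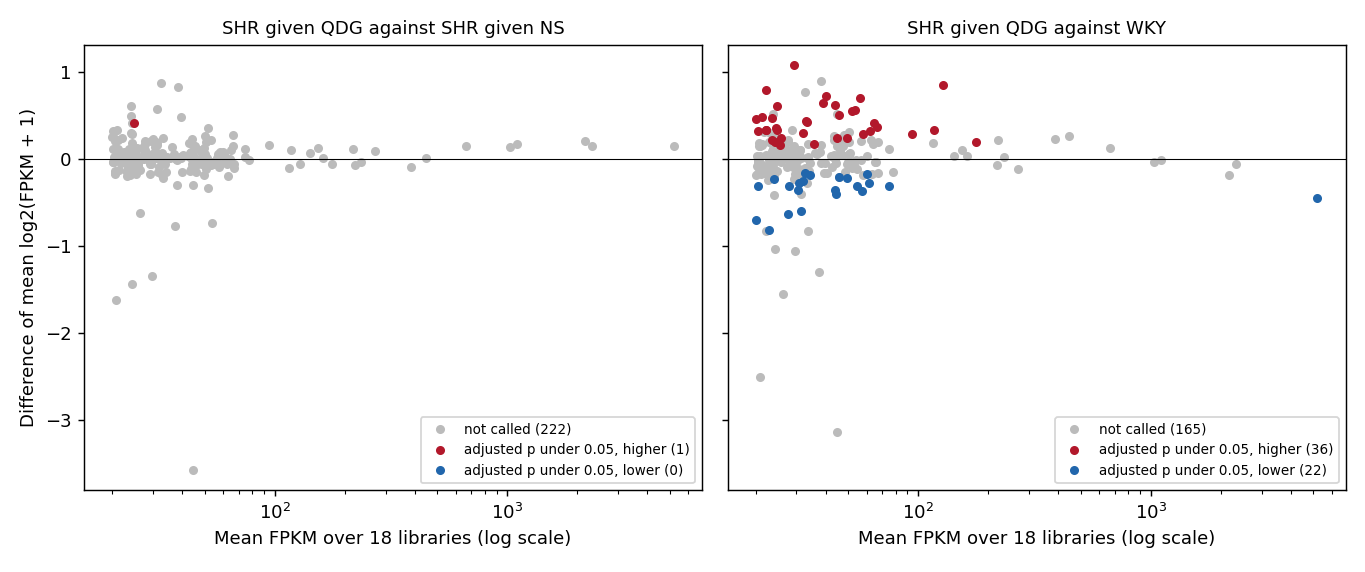
Log2 fold change on the log2(FPKM + 1) scale for QDG against SHR and for QDG against WKY (vertical axes) by mean FPKM over 18 libraries (horizontal log axis), with a point for each of the 223 genes and genes at an adjusted p under 0.05 marked. In QDG against SHR 1 gene is marked and in QDG against WKY 58 are.

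For QDG against WKY, 58 of the 223 genes (26.01%) passed an adjusted p of 0.05 in limma, against 20.9% of all genes tested. The WKY libraries, too, helped choose the genes, and the strain limit kept out genes with large strain differences. In QDG, 36 genes were higher (16.1%, against 11.7% of all genes tested) and 22 were lower (9.87%, against 9.20%). After rescaling to equal totals without the 4 most abundant genes, 27 were higher and 27 lower. The median log2 fold change was 0.03, against 0.01 over all genes tested. Of the 2576 genes with Ensembl rat identifiers (ENSRNOG) that reached 20 FPKM, 30.0% passed, and of the 4771 less abundant NONRATG genes tested, 13.6% passed. The genes named below as higher or lower kept that direction under all scalings. Ranges of QDG and WKY did not overlap for 34 genes (15.2%), against 10.4% of all genes tested. In QDG, 22 of them were higher (9.87%, against 5.83% of all genes tested) and 12 lower (5.38%, against 4.59% of all).

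NONRATG006692.2 was among the genes higher in QDG than in WKY. It had 122, 153 and 160 FPKM in the lowest, median and highest QDG library, against 136, 150 and 193 FPKM in SHR and 74.1, 80.1 and 88.8 FPKM in WKY. QDG and SHR overlapped and both lay above all WKY libraries. The log2 fold change was 0.85 in QDG against WKY (SE 0.08, limma adjusted p = 1.9e-07) and -0.06 in QDG against SHR (limma adjusted p = 0.843). NONRATG009618.2 had 45.2, 48.6 and 53.3 FPKM in QDG, 48.2, 51.5 and 53.8 FPKM in SHR and 29.0, 31.8 and 34.3 FPKM in WKY. It was higher in QDG than in WKY by 0.61 on the log2 scale (SE 0.05, limma adjusted p = 2.8e-08). Its neighbour by identifier, NONRATG009619.2, had 39.3, 44.2 and 49.2 FPKM in QDG, 41.4, 49.9 and 54.0 FPKM in SHR and 16.9, 28.5 and 31.5 FPKM in WKY, and was higher in QDG than in WKY by 0.72 on the log2 scale (SE 0.12, limma adjusted p = 1.5e-04). For both neighbours the QDG and WKY ranges were apart.

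NONRATG015844.2 had 22.4, 28.0 and 29.7 FPKM in QDG, 18.1, 23.4 and 28.8 FPKM in SHR and 12.4, 15.3 and 18.1 FPKM in WKY, and was higher in QDG than in WKY by 0.79 on the log2 scale (SE 0.10, limma adjusted p = 9.3e-06). NONRATG012775.2 with medians of 64.7 FPKM in QDG and 40.5 FPKM in WKY, NONRATG019426.2 with 45.7 FPKM in QDG and 27.9 FPKM in WKY, and NONRATG012921.2 with 27.3 FPKM in QDG and 17.99 FPKM in WKY also had QDG ranges above WKY. Their log2 fold changes were 0.70, 0.64 and 0.61, with limma adjusted p of 1.6e-05, 1.2e-06 and 9.4e-06. The largest log2 fold change belonged to NONRATG001812.2, at 1.08 (SE 0.23, limma adjusted p = 0.00270). It had 32.3, 35.3 and 46.2 FPKM in QDG, 16.8, 35.4 and 38.9 FPKM in SHR and 11.2, 15.4 and 36.3 FPKM in WKY. The QDG and WKY ranges overlapped through WKY replicate 5, at 36.3 FPKM, while the other 5 WKY libraries lay between 11.2 and 17.9 FPKM.

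Among genes lower in QDG than in WKY, NONRATG009376.2 had 15.3, 17.3 and 25.0 FPKM in QDG, 14.2, 17.4 and 21.5 FPKM in SHR and 26.6, 33.0 and 37.4 FPKM in WKY. Its log2 fold change was -0.82 in QDG against WKY (SE 0.11, limma adjusted p = 1.6e-05). NONRATG020131.2 had 25.9, 26.9 and 29.6 FPKM in QDG, 23.0, 23.9 and 27.0 FPKM in SHR and 37.5, 41.0 and 47.8 FPKM in WKY, and its log2 fold change in QDG against WKY was -0.60 (SE 0.06, limma adjusted p = 9.0e-07). All QDG libraries lay below all WKY libraries for both. NONRATG015223.2, with a median of 17.5 FPKM in QDG and 28.5 FPKM in WKY, had -0.70 (limma adjusted p = 2.2e-04). NONRATG021944.2, with 24.1 FPKM in QDG and 41.4 FPKM in WKY, had -0.63 (limma adjusted p = 0.00218), and NONRATG021943.2, next to it by identifier, with 29.1 FPKM in QDG and 37.2 FPKM in WKY, had -0.36 (limma adjusted p = 0.00609). NONRATG011319.2, with 40.2 FPKM in QDG and 53.8 FPKM in WKY, had -0.40 (limma adjusted p = 2.1e-04). The call of NONRATG015049.2, with 51.3 FPKM in QDG and 68.3 FPKM in WKY and a log2 fold change of -0.37 (limma adjusted p = 0.0191), was lost with sample weights and without QDG replicate 6.

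**Figure D4:**
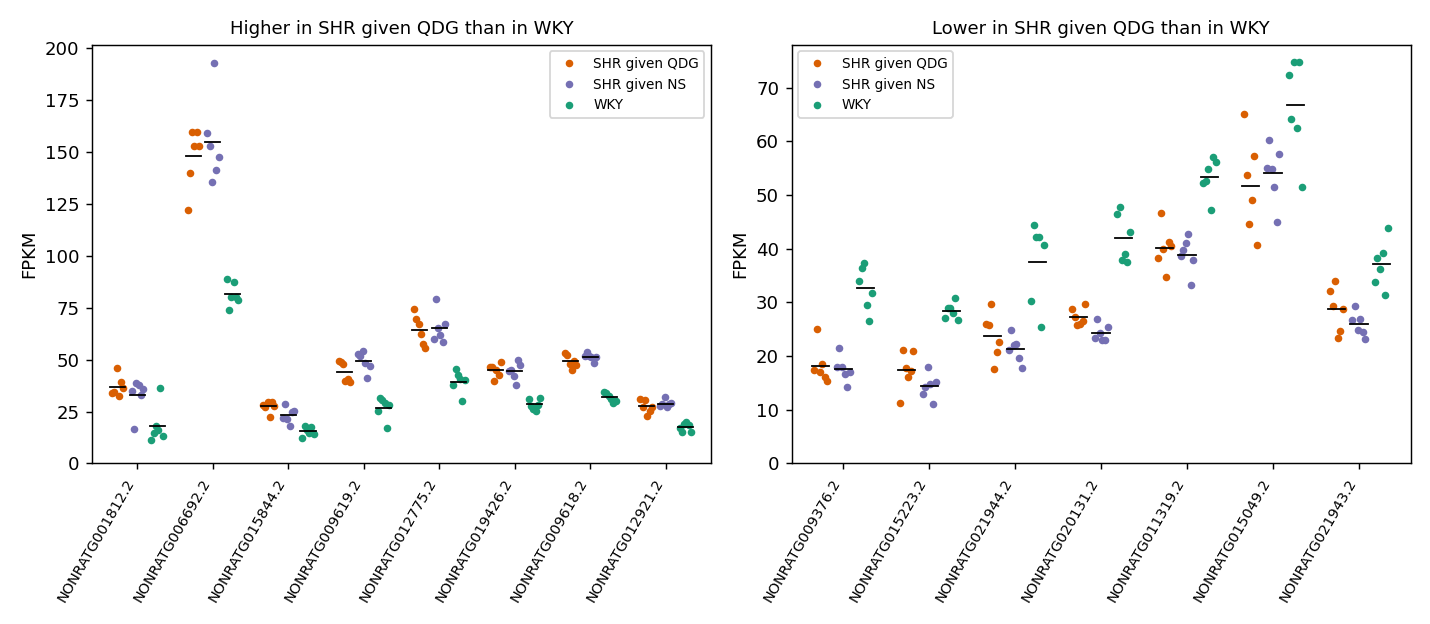
FPKM (vertical axes) in each library of QDG, SHR and WKY for 8 genes higher (left) and 7 genes lower (right) in QDG than in WKY, with a line at the group mean. Points of QDG lie above those of WKY for NONRATG006692.2 and below them for NONRATG020131.2, with SHR near QDG in both.

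The within-group spread of the 223 genes was moderate. The coefficient of variation had a median over genes of 9.78% in QDG, 9.81% in SHR and 11.9% in WKY. Over the median of the 3 groups, it was 10.3%, against 7.39% for ENSRNOG genes that reached 20 FPKM and 12.1% for all genes tested. For NONRATG genes under 20 FPKM, most of which were not tested, it was 47.7%. Under 20% in every group were 161 genes, and 12 reached 50% in at least 1 group. NONRATG001426.2 had the smallest median value, with 23.2, 23.6 and 24.6 FPKM in QDG, 21.5, 23.2 and 23.6 FPKM in SHR and 15.6, 16.8 and 18.2 FPKM in WKY. NONRATG007979.2, NONRATG018986.2, NONRATG004384.2 and NONRATG014890.2 followed. NONRATG004384.2 was level across groups, with medians of 44.0 FPKM in QDG, 42.7 FPKM in SHR and 44.6 FPKM in WKY.

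Among the 12 genes of high variation, several were either near 0 or above 20 FPKM, and the libraries on each side came from every group. NONRATG013631.2 had at least 60.7 FPKM in 1 of 6 QDG libraries, 5 of 6 SHR libraries and 4 of 6 WKY libraries, and at most 0.831 FPKM in the other 8. Its log2 fold change of -3.57 in QDG against SHR did not pass (SE 1.48, limma adjusted p = 0.408). NONRATG004709.2 had at least 51.8 FPKM in 4 QDG, 3 SHR and 3 WKY libraries, and at most 0.903 FPKM in the rest. NONRATG010519.2 had at least 22.0 FPKM in 2 QDG, 4 SHR and 5 WKY libraries, and at most 0.155 FPKM in the other 7. NONRATG000192.2 had at least 32.5 FPKM in 3 QDG, 4 SHR and 5 WKY libraries, and at most 3.06 FPKM in the other 6. NONRATG007710.2 ran without such a clear step, from 2.57 to 117 FPKM, with a coefficient of variation of 162% in QDG, 136% in SHR and 105% in WKY. NONRATG024117.2 was listed at 0 in QDG replicate 3 and had at least 10.9 FPKM elsewhere. NONRATG003933.2 was at 0.0788 FPKM in SHR replicate 2 and at least 20.8 FPKM elsewhere, and its SHR minus WKY difference was -0.16 without that library, against -0.98 with it.

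A search made after the values were seen, over genes averaging at least 10 FPKM, took for each of the 12 genes the gene that ran most opposite to it. For 4 of them its values did not overlap between the libraries where the noncoding gene was low and those where it was high. The same 18 libraries chose the opposite gene, so such separation is a description and supports nothing. NONRATG006104.2 had at least 67.2 FPKM in 13 libraries and at most 7.55 FPKM in the other 5. In those 5, ENSRNOG00000030124 had 56.7 to 77.4 FPKM, against 38.5 to 47.9 FPKM in the 13. NONRATG005709.2 had at least 33.7 FPKM in 14 libraries and at most 14.8 FPKM in the other 4. All 6 WKY libraries were among the 14, and the 4 came from QDG and SHR. Every QDG library lay below every WKY library for NONRATG005709.2, without a call (limma adjusted p = 0.219). In the 4 low libraries ENSRNOG00000001762 had 32.9 to 40.0 FPKM, against 14.2 to 19.1 FPKM in the 14. For these pairs, log2(FPKM + 1) over the 18 libraries had a Pearson r of -0.94 and -0.91, as a description. The other 2 rest on 1 low library each. In SHR replicate 2, where NONRATG003933.2 was low, ENSRNOG00000056256 had 100.5 FPKM, against 0.0571 to 77.5 FPKM elsewhere. In QDG replicate 3, where NONRATG024117.2 was listed at 0, NONRATG020617.2 had 30.9 FPKM, against 15.5 to 22.6 FPKM elsewhere. Whether reads were divided between the genes of a pair was not tested.

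**Figure D5:**
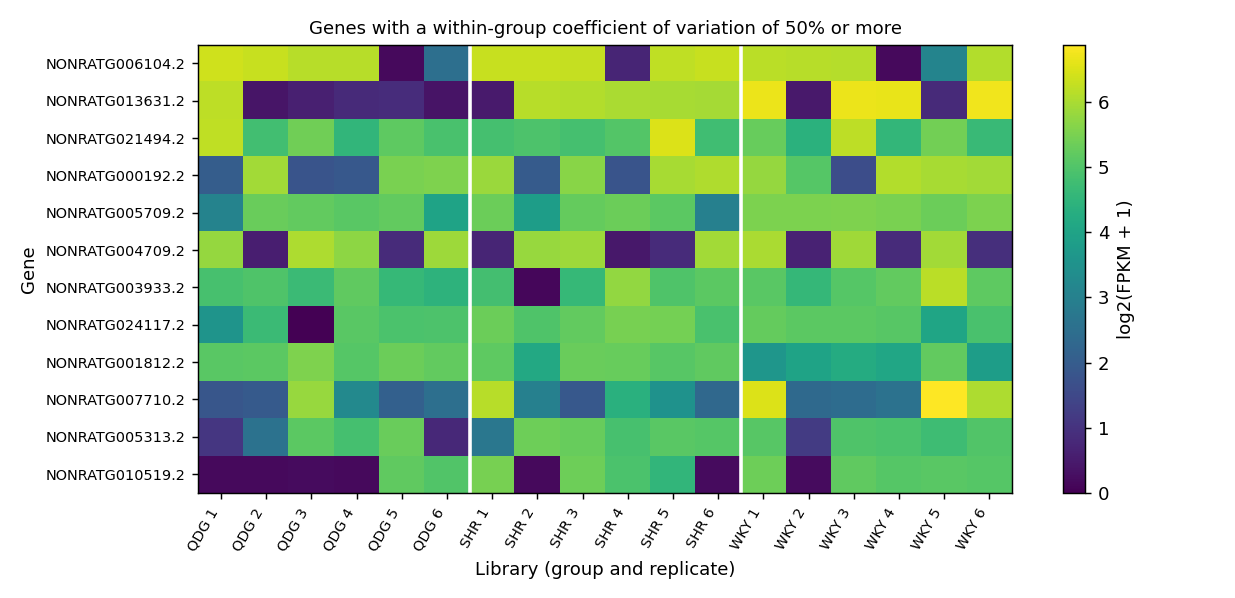
Level as log2(FPKM + 1), shown by colour, in each library of QDG, SHR and WKY (columns) for the 12 genes (lines down the page) with a coefficient of variation of at least 50% in at least 1 group. Libraries of NONRATG013631.2 fall at or under 0.831 FPKM or at or above 60.7 FPKM, and all groups have libraries on both sides.

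The deviations of each abundant gene from its group means were set beside those of every other gene kept, over the 18 libraries, which share the scaling to a common total. The correlations below are a description. NONRATG023456.2 was most like ENSRNOG00000060289, with a Pearson r of 0.998 and a Spearman rho of 0.992. The FPKM ratio of NONRATG023456.2 to its partner was 1.15 to 1.24 in all libraries, with means of 1.21 in QDG, 1.22 in SHR and 1.20 in WKY. NONRATG008807.2 was most like ENSRNOG00000054493 (r = 0.994), at 16.3 to 18.9 times its FPKM. NONRATG002812.3 was most like NONRATG002813.2 (r = 0.971), at 2.14 to 2.48 times its FPKM. In each of these pairs the ratio varied far less than the levels. NONRATG020763.2 was most like NONRATG009619.2 (r = 0.981) within groups, while their ratio differed between groups, at 5.27 ± 0.235 in QDG, 4.87 ± 0.0994 in SHR and 8.72 ± 0.364 in WKY (SD, n = 6 each). NONRATG019644.2 and NONRATG004057.2 (r = 0.903) had a ratio of 19.6 ± 1.26 in QDG, 20.4 ± 1.15 in SHR and 25.2 ± 0.988 in WKY (SD, n = 6 each). The other partners were ENSRNOG00000022637 for NONRATG015845.2 (r = 0.947), ENSRNOG00000013751 for NONRATG006031.2 (r = 0.914), NONRATG013869.2 for NONRATG002814.3 (r = 0.869) and ENSRNOG00000026455 for NONRATG006476.2. The last correlation was 0.954 and dropped to 0.767 without the 2 libraries farthest from the median. That of NONRATG006031.2 dropped to 0.846 in the same way, and the rest stayed at 0.868 or more. NONRATG013869.2 averaged only 2.89 FPKM, and NONRATG002814.3 correlated nearly as much with NONRATG002813.2 (r = 0.865).

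Some of the 223 genes carry consecutive identifiers. There were 27 such pairs among 52 genes, and their deviations had a median r of 0.53, against 0.08 over all 24753 pairs of genes. Of the 27, 14 had an r of at least 0.5, 8 of at least 0.8 and 8 under 0. NONRATG020482.2 and NONRATG020483.2 (r = 0.949), NONRATG000908.2 and NONRATG000909.2 (r = 0.912) and NONRATG021943.2 and NONRATG021944.2 (r = 0.865) moved most alike outside the trio of NONRATG002812.3. Whether consecutive identifiers are parts of the same transcript was not tested.

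A part of the variation was shared by many genes. The deviations were scaled so that each gene had the same variance. The first principal component held 33.6% of this scaled variance over the 223 genes, and the second held 13.7%. NONRATG023456.2 and NONRATG008807.2 correlated with the first at 0.92 and 0.94, and NONRATG020763.2 and NONRATG006476.2 at -0.96 and -0.82. In all, 19 genes had an r of at least 0.7 with it and 61 an r of -0.7 or less. The second most abundant gene of the libraries, ENSRNOG00000061096, correlated with it at 0.89 and the fourth, ENSRNOG00000034234, at -0.89. WKY replicate 5 had the highest score, 0.61, and was the highest or lowest of its 6 libraries for 136 of the 223 genes (61.0%), against 52.5% of all genes tested, while the other libraries were extreme for 32 to 105 of the 223. Without that library, 57 genes were called in QDG against WKY, 34 higher and 23 lower, and 50 of them were among the 58. Replicate 5 also had the highest score of its group in SHR, at 0.31, and in QDG, at 0.23. Replicates 1 and 2 scored below replicates 4 to 6 in SHR and QDG, but WKY replicate 1 scored above WKY replicates 4 and 6. Neither a link to replicate number nor the part of this shared variation in the differences between groups was tested.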

How the data were processed

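RNA sequencing measured gene levels in 18 libraries of rat heart, 6 each of QDG, SHR and WKY. Trizol extraction, rRNA depletion and a NEB library kit were used, per the labels' protocols. The deposited values were taken as FPKM normalized by the authors, inferred from the values, since the file headers do not name the unit; a TPM table with genes removed would look alike. The submitters' processing notes name limma with no version; for the aligner, build, annotation and strand, nothing is given in the sources used here. Absolute depth is unknown, so no counting interval is given; summed FPKM ran from 598630 to 676290.

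The 17397 genes that reached 1 FPKM in 6 or more libraries were tested as log2(FPKM + 1). The fit used limma 3.58.1 in R 4.3.3 with statmod 1.5.0, trended and robust variance moderation, all 3 groups in a single model and Benjamini-Hochberg adjustment over those genes. Tests were two-sided. The scale understates changes of low genes. The fit was also run on simulated data with known changes and noise drawn independently for each gene. The measured genes share variation, so nothing is drawn from that run here. Shares are a set's FPKM over all genes' FPKM in a library, and have no test. Correlations use deviations of log2(FPKM + 1) from group means. The search for opposite genes instead used log2(FPKM + 1) over all 18 libraries, so its r includes differences between groups.

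The genes and lists were chosen with earlier results of these data known. Named were the 10 highest genes, the called genes of largest change (8 per direction) or, with few calls, the 3 of smallest p, the extremes of strain difference and of variation (5 each way), the 3 nearest each limit, and the gene most correlated with each of the 10 highest. None of the identifiers could be matched to a symbol, so lists fixed by symbol were not tested. Alternatives were other scalings, filters, pseudocounts (0.1, 0.01), sample weights, a replicate block, 12 libraries alone, left-out libraries and other limits of membership. No deposited per-sample column was left unused.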

Additional observations from a re-analysis of the deposited data

Results flagged for a closer look

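Of 123 groups of 6 values, mostly those of the named genes, 14 held a library standing apart from the other 5. This was measured by its gap to the nearest over the group's range. Some named genes were chosen for high variation within groups or for extreme strain differences, so such libraries are partly built in by the choice. A chance rate of about 1 in 20 groups assumes normally distributed values of genes not chosen in this way. The 14 therefore cannot be judged against that rate and are given as a description. In QDG, NONRATG015844.2 was at 22.4 FPKM in replicate 4 (27.4 to 29.7 FPKM in the other 5), NONRATG009376.2 at 25.0 FPKM in replicate 2 (15.3 to 18.5 FPKM), NONRATG007710.2 at 55.2 FPKM in replicate 3 (2.57 to 8.39 FPKM) and NONRATG013631.2 at 71.9 FPKM in replicate 1 (0.288 to 0.831 FPKM). In SHR, NONRATG001812.2 was at 16.8 FPKM in replicate 2 (32.9 to 38.9 FPKM), NONRATG012921.2 at 31.9 FPKM in replicate 3 (27.3 to 28.9 FPKM), NONRATG006104.2 at 0.633 FPKM in replicate 4 (73.2 to 78.4 FPKM) and NONRATG007710.2 at 69.5 FPKM in replicate 1 (2.73 to 19.5 FPKM). NONRATG013631.2 was at 0.424 FPKM in SHR replicate 1 (60.7 to 69.1 FPKM) and NONRATG001426.2 at 21.5 FPKM in SHR replicate 4 (22.9 to 23.6 FPKM). In WKY replicate 5, NONRATG006476.2 was at 191 FPKM (338.9 to 405 FPKM), NONRATG001812.2 at 36.3 FPKM (11.2 to 17.9 FPKM) and NONRATG003933.2 at 70.5 FPKM (23.1 to 36.1 FPKM). NONRATG010519.2 was at 0.155 FPKM in WKY replicate 2 (32.4 to 40.0 FPKM).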

How the results depend on the processing

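Counts of called genes followed membership: at a mean of 10 FPKM or more they were 3 in QDG against SHR, 130 in QDG against WKY and 159 in SHR against WKY, and at 50 FPKM or more 0, 17 and 18. Leaving out 1 library gave 1 to 2 (2 without WKY replicate 5), 49 to 60 and 60 to 78. Same-numbered libraries correlated at -0.06 to 0.19. Such correlations cannot decide if the numbers pair libraries, because first-component scores ran partly with replicate number. Replicate 5 had the top score of every group. In SHR and QDG, replicates 1 and 2 also scored below replicates 4 to 6, whereas WKY replicate 1 scored above WKY replicates 4 and 6. A pairing by number was not tested further. With a replicate block the counts were 1, 73 and 89, against 1, 58 and 72 in the main fit. The members' share in QDG, SHR and WKY was 5.29%, 4.99% and 5.90% without the 4 highest genes in the total, 52.6%, 52.0% and 54.4% of NONRATG expression, 4.26%, 4.09% and 4.53% at 10 FPKM or more, 2.76%, 2.58% and 3.03% at 50 FPKM or more, and 2.65%, 2.54% and 2.65% at a strain difference under 0.5. It was 2.81%, 2.70% and 2.80% without the highest gene and 1.73%, 1.74% and 1.66% without the 5 highest, a choice made after seeing the data. Leaving out 1 library gave 3.53% to 3.61%, 3.37% to 3.43% and 3.77% to 3.90%. Of 1392 alternative values of named results, 8 lost and 3 gained a call, 21 differed in sign with no call in either fit, and, among the untested strain differences, 2 moved by over 1 SE and 1 reversed. NONRATG006104.2 had a log2 difference of 0.72 in SHR against WKY, which ran from -0.17 (without WKY replicate 4) to 1.65 (without SHR replicate 4). The cause of these shifts was not tested.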
